A study of Mus musculus with 17 samples.

Results

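Collagens are the structural proteins that hold tissues together. They are trimers of long chains wound into a triple helix, and each chain is the product of its own gene. The fibrillar collagens assemble into the fibres of interstitial tissue, the type IV collagens form the sheet-like network of basement membranes, and the remaining members decorate fibrils, form beaded microfilaments, anchor membranes or span the cell surface. In the newborn testis they surround the seminiferous tubules and fill the interstitium, and in the developing brain they are found mainly in vessel walls, in the basement membrane under the pia and in the meninges. The collagen genes described here are the protein-coding genes of the deposited expression table whose mouse symbol is Col, a number, a and a number. There were 44 of them among the 55359 genes of the table. They were divided into 11 fibrillar genes, the 6 basement membrane genes of type IV, and 27 others.

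The study asked how osteocalcin, a hormone made by bone, acts before birth through the mother or the embryo. RNA was sequenced from testes and forebrain of male mice on postnatal day 1. The mice belong to the OcnGK line on the 129/SvEv background, in which osteocalcin is deleted. WT pups had WT mothers, whereas both the Ocn+/- and the Ocn-/- pups had Ocn-/- mothers. Pup genotype, mother's genotype and litter therefore cannot be told apart in a comparison with WT, and only the Ocn-/- and Ocn+/- groups shared the maternal genotype. The testes gave 2 WT, 3 Ocn+/- and 3 Ocn-/- libraries and the forebrain 3 of each. The brain tissue is hippocampus in the labels, whereas the study's methods describe a forebrain sample that takes in the hippocampus, and it is called forebrain here. Nothing states that libraries of a group came from separate litters, so p-values measure only the spread between these libraries.

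The libraries held 7302401 to 8289015 counts in testes and 6518151 to 14621584 in forebrain. Forebrain WT 3 was the shallowest and had the lowest scaling factor of the forebrains, 0.866, and Ocn-/- testis 3 had the lowest summed level of collagens among the testes. The targeted gene could not serve as a check of the labels, since Bglap, which encodes osteocalcin, held at most 5 counts in any library and its neighbour Bglap2 held 0 in all 17. Levels are given as CPM, a gene's count relative to the total of its library in the usual unit, with library totals scaled by the trimmed mean of M-values (TMM) within each organ. Log2 fold changes are followed by their standard error. A gene was called when the adjusted p of edgeR's quasi-likelihood test, corrected by Benjamini-Hochberg over all genes tested, was under 0.05. In bulk tissue, fewer cells of a type and less RNA per cell cannot be told apart.

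In testes, 41 of the 44 collagen genes had enough counts to be tested, and in forebrain also 41. Col10a1, the collagen of hypertrophic cartilage, and Col28a1 were too low in both organs. Col19a1 was too low in testes, where both WT libraries held 0 counts, and Col17a1, a transmembrane collagen of epithelial anchoring, was too low in forebrain. The fibrillar genes Col1a1 and Col1a2, the chains of type I, and Col3a1, the chain of type III, had the highest level per length of exon in testes, at 366 ± 104, 249 ± 46.5 and 278 ± 69.5 CPM per kb (SD, n = 8). Col6a1, a chain of the microfibrillar type VI, followed at 209.6 ± 40.5 and Col4a1 at 159 ± 23.2 CPM per kb. These neighbours in the order differed by less than the sum of their SDs.

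The order differed in forebrain. Col4a1 and Col4a2, which together form the commonest type IV network, came first there at 21.4 ± 5.802 and 19.3 ± 5.38 CPM per kb (SD, n = 9). Col1a1, Col1a2 and Col3a1 followed at 11.8 ± 2.64, 11.1 ± 2.42 and 9.19 ± 1.97 CPM per kb. The ranges of Col4a1 and Col4a2 overlapped, as did those of the 3 fibrillar genes. Of the summed level per kb of all 44 genes, the fibrillar genes held 52.8% ± 3.6 in testes and 33.9% ± 3 in forebrain. Type IV genes held 17.1% ± 2.7 and 36.1% ± 3.92, and the others 30.1% ± 1.14 and 30% ± 2.47. With the longest transcript in place of all exons as gene length, the fibrillar share was 59.9% ± 3.1 and 39.8% ± 3.21 and the type IV share 13.4% ± 2.17 and 28.8% ± 3.47, and the highest gene became Col1a2 in both organs.

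Collagen genes were mostly higher in testes. In the joint fit of both organs, 35 of 42 tested collagen genes were higher in testes and 5 were lower, while 44.5% of all genes tested were higher and 39.9% lower. The median log2 difference was 3.39 for the collagen genes and 0.087 for all genes, and with library totals alone as the scaling these medians were 3.70 and 0.40. Those lower in testes were Col19a1, Col9a3, Col8a1, Col11a2 and Col2a1. Col2a1 was not called with library totals alone as the scaling, and Col2a1 and Col11a2 were not called with the replicate number as a block. Col9a3 belongs to type IX, which sits on the surface of cartilage fibrils, and Col2a1 and Col11a2 are chains of cartilage fibrils. The largest difference per gene among the type IV chains was that of Col4a4, a chain of specialised basement membranes, with 6.37 ± 0.088 on the log2 scale (edgeR's quasi-likelihood test, adjusted p = 1.68e-26).

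Within each class the members spanned a wide range of levels per kb. The type V chains Col5a1 and Col5a2 stood at 68.5 and 40.5 CPM per kb in testes and 2.89 and 2.96 in forebrain. The remaining fibrillar genes Col2a1, Col5a3, Col11a1, Col11a2, Col24a1 and Col27a1 lay between 0.325 and 4.003 in testes and between 0.124 and 1.86 in forebrain. Below Col4a1 and Col4a2, the type IV chains Col4a3 to Col4a6 lay between 6.42 and 25.4 CPM per kb in testes and between 0.104 and 2.18 in forebrain.

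Among the others, the multiplexins Col15a1 and Col18a1, which join basement membranes to the tissue below, stood at 28.6 and 51.8 CPM per kb in testes and 1.49 and 3.24 in forebrain. The 6 type VI genes ran from 2.78 (Col6a4) to 209.6 (Col6a1) in testes and from 0.0799 (Col6a6) to 4.65 (Col6a1) in forebrain. The 9 fibril-associated genes, Col9a1, Col9a2, Col9a3, Col12a1, Col14a1, Col16a1, Col19a1, Col20a1 and Col22a1, were led by Col14a1 in testes (23.6) and by Col9a3 in forebrain (4.17). The 4 transmembrane genes Col13a1, Col17a1, Col23a1 and Col25a1 were led by Col23a1 (16.2 in testes and 3.404 in forebrain, where Col25a1 was higher with the longest transcript as length). Of the short-chain and anchoring genes Col7a1, Col8a1, Col8a2 and Col10a1, Col8a2 was highest in testes (12.7), while in forebrain Col8a2 (0.941 ± 0.295) and Col8a1 (0.849 ± 0.264) overlapped and changed places with the longest transcript as length, and Col26a1 stood at 9.15 and 4.65 CPM per kb.

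**Figure D1:**
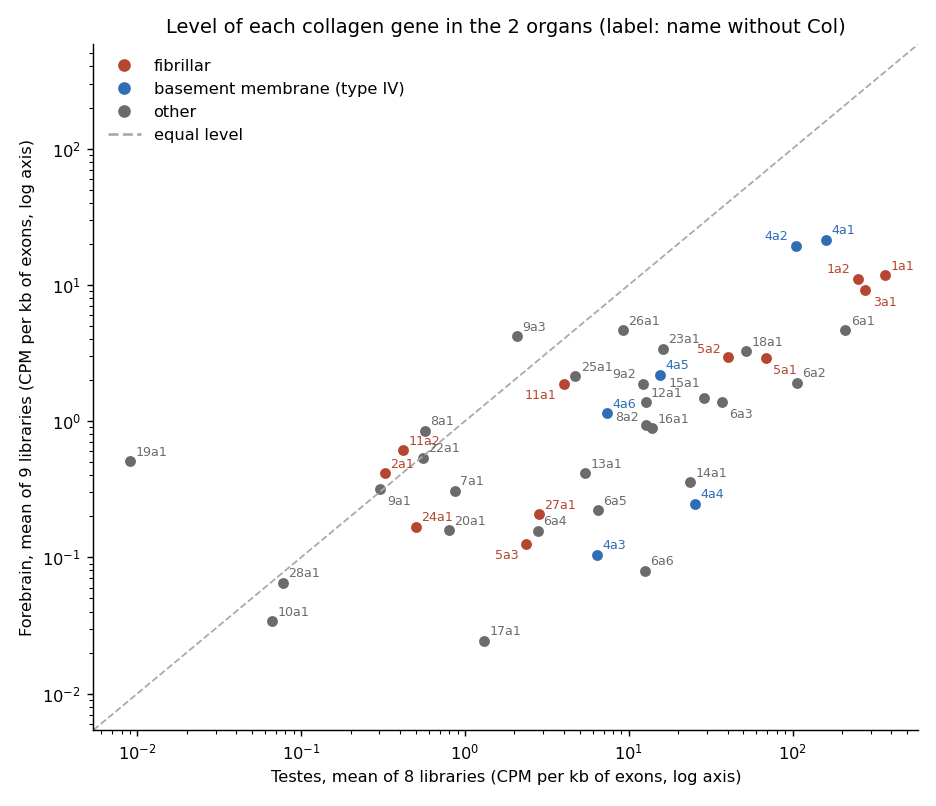
Mean level of each of the 44 collagen genes in testes (horizontal axis) and forebrain (vertical axis), both in CPM per kb of exons on log axes and scaled within each organ; colours mark the classes and the dashed line marks equal levels. Most points lie below the line, and Col4a1 and Col4a2 lead in forebrain while Col1a1 leads in testes.

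In forebrain, 4 collagen genes fell both in Ocn+/- and in Ocn-/- pups, and none rose. They were Col11a1, Col6a3, Col4a1 and Col4a2. These were 4 of 41 tested, beside 2.68% of all genes called lower in Ocn+/- and 3.05% in Ocn-/-. Both comparisons use the same 3 WT libraries. With library totals alone as the scaling, higher genes made up 47.7% of all called in Ocn+/- (31% with TMM) and 64.5% in Ocn-/- (37.2% with TMM), the median of all genes moved to 0.086 and 0.11 on the log2 scale, and the 4 collagen genes were still called lower, except Col6a3 in Ocn+/-.

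Col11a1 encodes a chain of type XI collagen, a minor fibrillar collagen that starts and narrows fibrils (chromosome 3, 113824134 to 114014367, plus strand, GRCm39). Its level was 32.9, 30.1 and 37.4 CPM in WT, 17.6, 18.8 and 21.2 in Ocn+/- and 19.2, 18.5 and 18.7 in Ocn-/-. All 6 mutant libraries lay below every WT library, and the 2 mutant genotypes overlapped. On the log2 scale the Ocn+/- group differed from WT by -0.79 ± 0.12 (edgeR's quasi-likelihood test, adjusted p = 0.0012) and the Ocn-/- group by -0.83 ± 0.12 (adjusted p = 9.95e-04). Col11a1 was called under each of the alternatives run, with adjusted p up to 0.0104 and 0.00749.

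Col6a3 encodes the longest of the main chains of type VI collagen, the beaded microfilament next to cells (chromosome 1, 90693645 to 90771780, minus strand). It read 21.1, 21.3 and 25.4 CPM in WT, 16.4, 11.9 and 14.7 in Ocn+/- and 11.98, 13.4 and 14.1 in Ocn-/-. Again no mutant library reached the lowest WT library. Its log2 fold change reached -0.65 ± 0.15 in Ocn+/- (edgeR, adjusted p = 0.0179) and -0.77 ± 0.15 in Ocn-/- (adjusted p = 0.00612). The Ocn-/- call was made under each of 16 alternatives, and the Ocn+/- call not without WT 3, Ocn+/- 2 or Ocn+/- 3 or with library totals alone as the scaling (adjusted p up to 0.0976). Its partner chain Col6a1 read 32.1, 28.3 and 37.2 CPM in WT, 24.2, 20.4 and 27.8 in Ocn+/- and 21.3, 22.2 and 31.1 in Ocn-/-, and Col6a2 read 22.3, 22.5 and 25.97 CPM in WT, 24.1, 17.7 and 23.8 in Ocn+/- and 10.4, 17.9 and 24.6 in Ocn-/-. They were not called, with log2 fold changes of -0.40 and -0.25 for the mean of both mutants against WT (adjusted p = 0.0707 and 0.515).

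Col4a1 and Col4a2 encode the 2 chains of the general basement membrane network, which in the brain lies around every vessel. Their genes lie head to head on chromosome 8, Col4a1 on the minus strand (11248423 to 11362826) and Col4a2 on the plus strand (11362471 to 11499287). Col4a1 read 182, 205 and 241 CPM in WT, 138, 118 and 149 in Ocn+/- and 122, 113 and 166 in Ocn-/-. Col4a2 read 169, 169.6 and 212 CPM in WT, 112, 105 and 131 in Ocn+/- and 106, 96.99 and 146 in Ocn-/-. For both genes every mutant library lay below every WT library, and WT 3 was the highest of the WT libraries.

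For Col4a1 the log2 fold changes in Ocn+/- and Ocn-/- were -0.63 ± 0.15 and -0.64 ± 0.15 (edgeR, adjusted p = 0.0418 and 0.0348). For Col4a2 it was -0.65 ± 0.15 and -0.65 ± 0.15 (adjusted p = 0.0353 and 0.0302). In Ocn-/- Col4a1 was not called without WT 2, WT 3, Ocn-/- 1, Ocn-/- 2 or Ocn+/- 1 (adjusted p up to 0.136), and Col4a2 was lost without the same libraries. In Ocn+/- Col4a1 was not called without WT 2, WT 3, Ocn-/- 1, Ocn+/- 1, Ocn+/- 2 or Ocn+/- 3 (adjusted p up to 0.16) and Col4a2 not without WT 2, WT 3, Ocn+/- 1 or Ocn+/- 2 (adjusted p up to 0.143). The ratio of Col4a1 to Col4a2 counts stayed within 1.08 to 1.23 over all 9 forebrains, and its ranges overlapped between the genotypes. Opposite-strand genes cover 4.94% of the Col4a1 exons and 4.93% of those of Col4a2, mostly each other. The strand setting of the counting is not given in the sources used here, so reads of that stretch may be split between them.

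In RefSeq on the build GRCm38.p6 the transcription starts of this pair overlap by 22 bases on opposite strands, which is shown because both chains fell together. The stretch is chr8:11312805-11312826, written on the plus strand with a GC box (GGGCGG, or CCGCCC on the other strand) in capitals:
Col4a1 and Col4a2 start: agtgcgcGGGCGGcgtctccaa
The upstream stretches of the 2 other genes that fell in forebrain are shown on their own strands, up to the first base of a transcript in the GENCODE annotation. Capitals mark a GC box or a CCAAT box (CCAAT or ATTGG), and the motifs do not overlap. For Col11a1 it is chr3:114030290-114030484, plus strand:
Col11a1: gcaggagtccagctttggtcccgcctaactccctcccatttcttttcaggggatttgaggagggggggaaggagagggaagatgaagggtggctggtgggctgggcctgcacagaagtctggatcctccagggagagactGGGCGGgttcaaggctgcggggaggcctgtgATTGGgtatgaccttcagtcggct
For Col6a3 it is chr1:90844059-90844221, minus strand:
Col6a3: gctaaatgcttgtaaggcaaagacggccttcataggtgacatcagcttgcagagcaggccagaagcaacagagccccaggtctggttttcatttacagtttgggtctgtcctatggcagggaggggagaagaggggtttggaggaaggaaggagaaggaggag
In the whole 250-base window before the start, Col11a1 held 2 GC boxes and 1 CCAAT box, and Col6a3 held 0 of either and 0 TATA boxes (TATAAA, or TTTATA on the other strand). Of all 32851 RefSeq windows of that length, 32.7% held a GC box, 33.8% a CCAAT box and 12.4% a TATA box. Among 38 windows of collagen genes, 22 held a GC box, 13 a CCAAT box and 5 a TATA box.

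**Figure D2:**
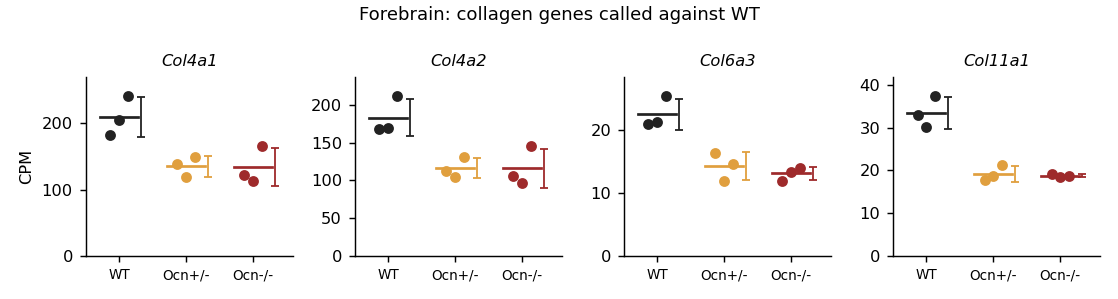
Level in CPM of the 4 collagen genes called against WT in forebrain, for WT, Ocn+/- and Ocn-/- (3 libraries each); points are libraries, horizontal lines means and error bars the SD. All mutant points lie below all WT points in each panel.

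The other collagen genes of the forebrain were mostly lower as well, without being called. Of 41 tested, 30 were below WT in Ocn+/- and 35 in Ocn-/-, with median log2 fold changes of -0.22 and -0.34 beside 0.0059 and 0.0061 for all genes. The Ocn+/- median of the collagen genes was -0.093 without WT 3, -0.12 without Ocn+/- 2 and -0.37 without Ocn+/- 3, and it was -0.14 with library totals alone as the scaling. The Ocn-/- median was -0.28 without WT 3, -0.20 without Ocn-/- 1 and -0.55 without Ocn-/- 3. All 6 type IV genes were below WT in both genotypes, with medians of -0.48 and -0.46. Of the 11 fibrillar genes, 8 and 10 were below WT, with medians of -0.22 and -0.38. The 24 tested others had medians of -0.08 and -0.32. Type IV genes held 38.3% to 41.9% of the summed collagen level per kb in WT, 31.3% to 33.1% in Ocn+/- and 33.6% to 38.1% in Ocn-/-, so that no mutant forebrain reached the lowest WT value.

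Over the mean of both mutants, 4 collagen genes were called lower in forebrain, beside 5.39% of all genes. They were the same 4 genes. The most abundant fibrillar genes were not among them. Col1a1, at 79.99, 80.2 and 95.9 CPM in WT, 93.6, 69.05 and 83.3 in Ocn+/- and 43.2, 60.6 and 92.4 in Ocn-/-, gave a log2 fold change of -0.38 in Ocn-/- (edgeR, adjusted p = 0.475), and its groups overlapped, Ocn-/- forebrain 3 being as high as WT. Col1a2 read 149, 139 and 172 CPM in WT, 167, 125 and 149 in Ocn+/- and 88.1, 101 and 174 in Ocn-/-. Col3a1 read 102, 86.7 and 105 CPM in WT, 114, 86.8 and 111 in Ocn+/- and 58.1, 71.1 and 116 in Ocn-/-. In both, Ocn-/- forebrain 3 was the highest of all 9 and the other Ocn-/- forebrains the lowest. Without Ocn-/- forebrain 3, 10 collagen genes were called lower in Ocn-/-, adding Col1a1, Col1a2, Col3a1, Col5a1, Col6a1 and Col6a2 to the 4, beside 888 of 16411 genes called in either direction.

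The largest log2 fold changes of each class in forebrain, taken as the mean of both mutants against WT, belonged to weakly expressed genes that were not called. They were Col5a3, a chain of type V, at -0.99, Col20a1, a fibril-associated collagen, at -0.87, and Col4a3 at -1.25 (edgeR, adjusted p = 0.208, 0.289 and 0.0566). Col5a3 read 0.991, 1.15 and 1.78 CPM in WT, 0.947, 0.465 and 0.4704 in Ocn+/- and 0.719, 0.201 and 0.979 in Ocn-/-, with every mutant below WT. Col20a1 read 0.915, 0.806 and 2.13 CPM in WT, 0.744, 0.465 and 1.01 in Ocn+/- and 0.399, 0.268 and 1.05 in Ocn-/-, and its groups overlapped. Col23a1, a transmembrane collagen named after its values were seen, was above WT in every Ocn+/- forebrain, at 24.9, 22.01 and 23.7 beside 16.9, 19.1 and 16.7 CPM, and Col9a2 was above WT in every Ocn-/- forebrain, at 5.99, 7.502 and 6.398 beside 4.65, 3.69 and 5.34 CPM. Neither was called (adjusted p = 0.0847 and 0.154), where 1.21% and 1.8% of all genes were called higher.

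Marker genes of the cells that make collagen were read beside these values. Of 10 endothelial markers, 6 were below WT in each mutant forebrain, and Pecam1, Kdr and Vwf were called lower in Ocn+/- and Kdr and Vwf in Ocn-/-, beside 2.68% and 3.05% of all genes. Their summed level was 251 to 293 CPM in WT, 207 to 249 in Ocn+/- and 193 to 272 in Ocn-/-. Of 10 tested pericyte and smooth muscle markers, Abcc9 was called lower in both, with sums of 229 to 271, 200.1 to 253 and 206 to 233 CPM. Of 10 tested markers of fibroblasts and meninges none was called by edgeR, with sums of 249 to 342, 264 to 309 and 224 to 293 CPM. Choroid plexus markers had sums of 590.1 to 755 CPM in WT, 588 to 877 in Ocn+/- and 330.1 to 543 in Ocn-/-, so that the Ocn-/- forebrains lay below WT, and 1 of 7, Aqp1, was called lower in Ocn-/- (-0.85 ± 0.18, edgeR, adjusted p = 0.0136). Markers called higher were Cx3cr1 of macrophages in both genotypes (0.84 ± 0.17 and 0.91 ± 0.17, edgeR, adjusted p = 0.0113 and 0.00582) and, in Ocn+/-, Cnmd of cartilage (2.47 ± 0.63, adjusted p = 0.0349) and Calb2 of the olfactory bulb (1.10 ± 0.20, adjusted p = 0.0101), beside 1.21% and 1.8% of all genes called higher. The sums of the 9 cartilage, 6 olfactory bulb and 6 macrophage markers overlapped between WT and each mutant. For cartilage they were 114 to 121 CPM in WT and 88.2 to 119 in Ocn+/-. For olfactory bulb they were 240 to 304 and 222 to 259, and for macrophages 51.2 to 68.1 and 60.9 to 79.03. The skeletal muscle sum lay above WT in all mutant forebrains (3.74 to 4.5 CPM in WT, 6.63 to 7.26 in Ocn+/- and 5.89 to 7.23 in Ocn-/-). No endothelial, pericyte or choroid plexus marker was at 0 counts in the forebrain. Their part in the fall of the collagen genes was not tested.

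In testes the type V chains and Col6a1 were called lower in Ocn-/- pups, Col9a2 higher in Ocn+/- pups, and Col8a1 lower in both. In Ocn-/- testes 6 of 41 fell, beside 3.09% of all genes called lower, and 0 rose, beside 2.54% called higher. They were Col5a1, Col5a2 and Col5a3, the chains of type V that set the width of type I fibrils, together with Col6a1, Col4a5 and Col8a1. In Ocn+/- testes Col8a1 and Col15a1 fell, 2 of 41 beside 4.36% called lower, and Col9a2 rose, 1 of 41 beside 3.89% called higher. These shares rest on 2 WT libraries. Without WT 2 no testis collagen was called in any comparison with WT, and without WT 1 the counts were 1 in Ocn+/- and 3 in Ocn-/-. Leaving out a WT testis leaves 1, which the fit assumes to vary like the other groups. With library totals alone as the scaling, higher genes made up 68.1% of all called in Ocn+/- (47.2% with TMM) and 65.2% in Ocn-/- (45.1% with TMM). The collagen genes called were then Col8a1 and Col9a2 in Ocn+/- and, in Ocn-/-, the same as before with Col4a3 higher in place of Col5a1.

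Col8a1 encodes a short-chain collagen of vessel walls and the cornea and had the largest fold change against WT of the 41 collagen genes tested in testes (chromosome 16, 57444621 to 57575100, minus strand). It read 5.83 and 12.2 CPM in WT, 2.66, 3.15 and 2.61 in Ocn+/- and 3.67, 4.21 and 1.39 in Ocn-/-. Each of the 6 mutant values was under both WT values, and the WT values lay far from each other. The log2 fold changes in Ocn+/- and Ocn-/- were -1.68 ± 0.42 and -1.54 ± 0.42 (edgeR, adjusted p = 0.0257 and 0.0415). The Ocn+/- call was not made without WT 2, Ocn+/- 1 or Ocn+/- 3 (adjusted p up to 0.377) and the Ocn-/- call not without WT 2, Ocn-/- 1, Ocn-/- 3 or Ocn+/- 3 or with only the genotypes compared in the fit (adjusted p up to 0.559). In forebrain Col8a1 read 8.16, 6.22 and 10.5 CPM in WT, 8.72, 6.04 and 6.05 in Ocn+/- and 5.11, 5.09 and 3.99 in Ocn-/- and was not called (adjusted p = 0.0556 in Ocn-/-).

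The 250 bases before the Col8a1 start are shown because it was the collagen called in both mutant testes. They are chr16:57754738-57754987 on GRCm38.p6 (RefSeq), written on the minus strand with 4 GC boxes in capitals, and they hold neither a CCAAT nor a TATA box as spelled above:
Col8a1: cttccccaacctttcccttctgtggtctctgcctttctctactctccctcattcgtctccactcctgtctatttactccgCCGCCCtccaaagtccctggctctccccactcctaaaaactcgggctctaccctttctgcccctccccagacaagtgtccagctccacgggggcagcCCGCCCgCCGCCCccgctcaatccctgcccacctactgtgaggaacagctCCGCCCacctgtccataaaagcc

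Col15a1 is a multiplexin of the basement membrane zone, found around vessels and muscle (chromosome 4, 47207582 to 47313179, plus strand). Its level was 248 and 246 CPM in WT, 184, 160.4 and 196 in Ocn+/- and 172, 179.8 and 202 in Ocn-/-. The WT libraries were nearly equal and all 6 mutant libraries lay below them. It gave a log2 fold change of -0.45 ± 0.12 in Ocn+/- (edgeR, adjusted p = 0.036) and -0.42 ± 0.12 in Ocn-/-, where it was not called (adjusted p = 0.0585). The Ocn+/- call was not made without WT 1, WT 2, Ocn+/- 1, Ocn+/- 2 or Ocn+/- 3 or with library totals alone as the scaling (adjusted p up to 0.241). In forebrain the change was -0.53 ± 0.17 for the mean of both mutants (adjusted p = 0.0562), with each mutant library below each WT library.

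Col4a5, on the X chromosome, encodes a type IV chain used in specialised basement membranes (140258354 to 140472231, plus strand). It read 169 and 234 CPM in WT, 122, 142 and 151 in Ocn+/- and 118, 127 and 85.8 in Ocn-/-. No mutant library reached WT. The change amounted to -0.87 ± 0.17 on the log2 scale in Ocn-/- (edgeR, adjusted p = 0.0116) and -0.54 ± 0.17 in Ocn+/- (adjusted p = 0.0666). In Ocn-/- it was called under 14 of 15 alternatives, all but the one without WT 2 (adjusted p = 0.253). Its neighbour Col4a6, at 58.3 and 85.7 CPM in WT, 53.4, 75.96 and 60.6 in Ocn+/- and 58.5, 50.9 and 26.9 in Ocn-/-, was not called (log2 fold change -0.66, adjusted p = 0.273 in Ocn-/-), and its groups overlapped.

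The type V chains fell in Ocn-/- testes and were not called in Ocn+/- testes, and edgeR called none of them between Ocn-/- and Ocn+/- in the main fit (adjusted p = 0.141, 0.308 and 0.141 for Col5a1, Col5a2 and Col5a3). With no filter on low counts edgeR called each of them in that comparison, and DESeq2 called Col5a1. Col5a1 read 588 and 708 CPM in WT, 632, 712 and 751 in Ocn+/- and 515, 474 and 398 in Ocn-/-. Col5a2 read 509 and 633 CPM in WT, 417, 528 and 506 in Ocn+/- and 377, 397 and 257 in Ocn-/-. Col5a3 read 17.2 and 20.7 CPM in WT, 17.9, 19.8 and 21.2 in Ocn+/- and 11.4, 10.7 and 9.98 in Ocn-/-. For each chain all Ocn-/- testes lay below WT, whereas the Ocn+/- testes overlapped WT. The log2 fold changes in Ocn-/- were -0.49 ± 0.14, -0.73 ± 0.17 and -0.83 ± 0.20 (edgeR, adjusted p = 0.0457, 0.0277 and 0.0233). Col5a1 was not called without WT 1, WT 2, Ocn-/- 1, Ocn-/- 3, Ocn+/- 1 or Ocn+/- 3 or with library totals alone as the scaling or with only the genotypes compared in the fit (adjusted p up to 0.513). Col5a2 was not called without WT 1, WT 2 or Ocn-/- 1 (adjusted p up to 0.365) and Col5a3 not without WT 1, WT 2, Ocn-/- 1 or Ocn-/- 3 (adjusted p up to 0.365).

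Col6a1 read 1324 and 1549 CPM in WT, 1199, 1353 and 1454 in Ocn+/- and 1054, 1015 and 858 in Ocn-/-. Its Ocn-/- values lay below both WT values and its Ocn+/- values overlapped them. The log2 fold change in Ocn-/- was -0.56 ± 0.13 (edgeR, adjusted p = 0.0228), and it was not called without WT 1, WT 2 or Ocn-/- 3 (adjusted p up to 0.394). All 6 type VI genes were below WT in Ocn-/- testes, with a median of -0.52. Col6a2, at 1110.0 and 1345 CPM in WT, 1278, 1319 and 1504 in Ocn+/- and 1051, 938 and 769.5 in Ocn-/-, gave -0.42 ± 0.14 and Col6a3 -0.46 ± 0.16 (adjusted p = 0.0926 and 0.0892). Col6a5 and Col6a6, further large chains of type VI named after their values were seen, stood out by Ocn-/- testis 3, which had 7.33 and 28.6 CPM where the lowest of the other testes had 39.7 and 91.2.

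Col9a2, a chain of the fibril-associated type IX, was the single collagen gene called higher in a comparison with WT in the main fit. It read 28.9 and 32.9 CPM in WT, 48.9, 48.5 and 58.7 in Ocn+/- and 35.6, 26 and 23.5 in Ocn-/-. The Ocn+/- testes lay above all others and the Ocn-/- testes overlapped WT. The log2 fold change in Ocn+/- was 0.75 ± 0.18 (edgeR, adjusted p = 0.0208), and it was not called without WT 1, WT 2 or Ocn+/- 3 (adjusted p up to 0.196). Its partner chain Col9a3 went the other way, at 13.5 and 12.6 CPM in WT, 7.97, 8.08 and 8.11 in Ocn+/- and 7.23, 9.56 and 8.21 in Ocn-/-. Both mutant genotypes lay below WT, and Col9a3 was called for the mean of both mutants only (-0.67 ± 0.20, adjusted p = 0.048), and under 3 of 14 alternatives (adjusted p up to 0.301), being lost without any single library but Ocn-/- 2. Opposite-strand genes, here Tcfl5, cover 11.8% of its exons.

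**Figure D3:**
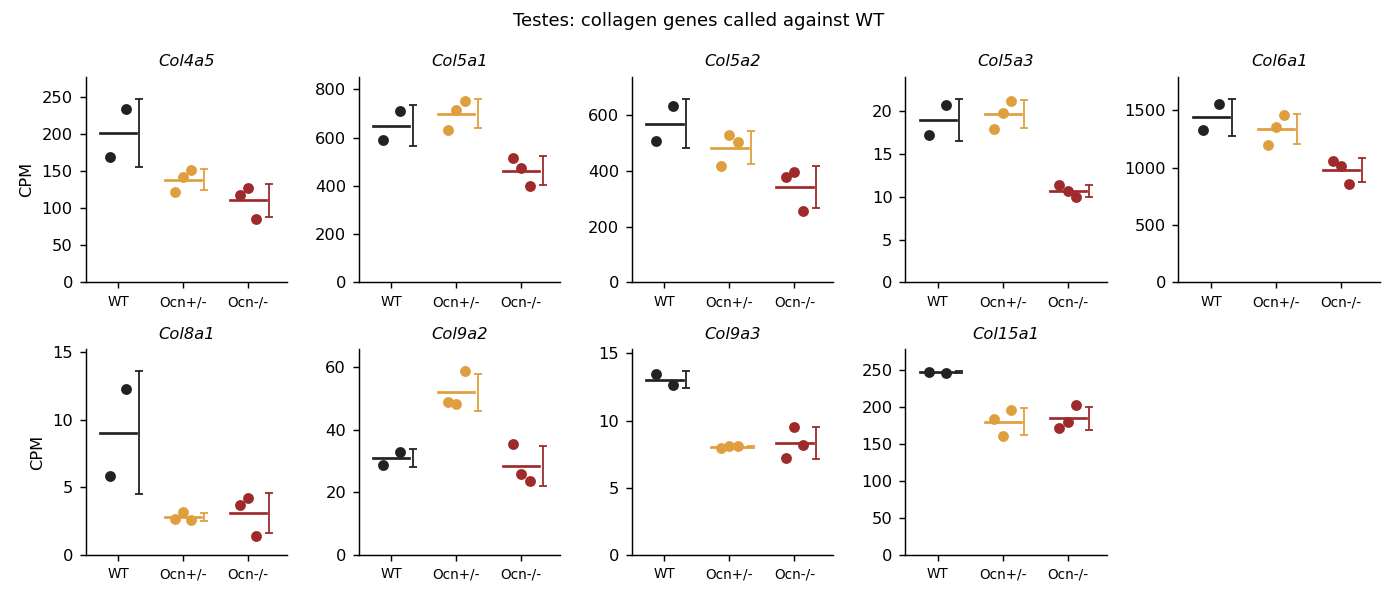
Level in CPM of the 9 collagen genes called against WT in testes, for WT (2 libraries), Ocn+/- and Ocn-/- (3 each); points are libraries, horizontal lines means and error bars the SD. For Col5a1, Col5a2, Col5a3 and Col6a1 the Ocn-/- points lie below WT and the Ocn+/- points overlap it, for Col9a2 the Ocn+/- points lie above the rest, and in the other panels both mutant groups lie below WT.

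Over the mean of both mutants, Col15a1, Col4a5, Col8a1 and Col9a3 were called lower in testes, 4 of 41 beside 5.43% of all genes. The highest expressed collagen genes of the testis were not called against WT in either genotype. Col1a1 read 1884 and 2597 CPM in WT, 2804, 3109 and 3180.0 in Ocn+/- and 2589, 1736 and 1315 in Ocn-/-, and each Ocn+/- value was above both WT values. Col1a2 read 2739 and 3393 CPM in WT, 3366, 3798 and 3828 in Ocn+/- and 3317, 2503 and 2243 in Ocn-/- and Col3a1 3055 and 3747 CPM in WT, 2869, 3146 and 3532 in Ocn+/- and 2388, 2658 and 1465 in Ocn-/-. The Ocn-/- values of Col3a1 all lay below WT (log2 fold change -0.65 ± 0.21, edgeR, adjusted p = 0.0966), and those of Col1a1 and Col1a2 overlapped WT.

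Over all 41 tested genes, 23 were below WT in Ocn+/- and 34 in Ocn-/- testes, with medians of -0.10 and -0.43 on the log2 scale beside 0.0066 and -0.0064 for all genes. The Ocn+/- median did not keep its sign, being 0.088 without WT 2, 0.0063 without Ocn+/- 1 and -0.19 without WT 1, and it was -0.019 with library totals alone as the scaling. The Ocn-/- median was -0.26 without WT 2 and between -0.39 and -0.56 without any other library. In Ocn-/- testes 10 of 11 fibrillar, 4 of 6 type IV and 20 of 24 other genes were below WT, with medians of -0.49, -0.29 and -0.44. In Ocn+/- testes these counts were 5, 4 and 14, with medians of 0.05, -0.13 and -0.10. The gene with the largest change among the fibrillar genes, taken as the mean of both mutants, was Col11a1, at 57.4 and 87.8 CPM in WT, 39.5, 60.2 and 48.4 in Ocn+/- and 46.2, 41.9 and 28.4 in Ocn-/- (-0.73 ± 0.21, edgeR, adjusted p = 0.0503).

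**Figure D4:**
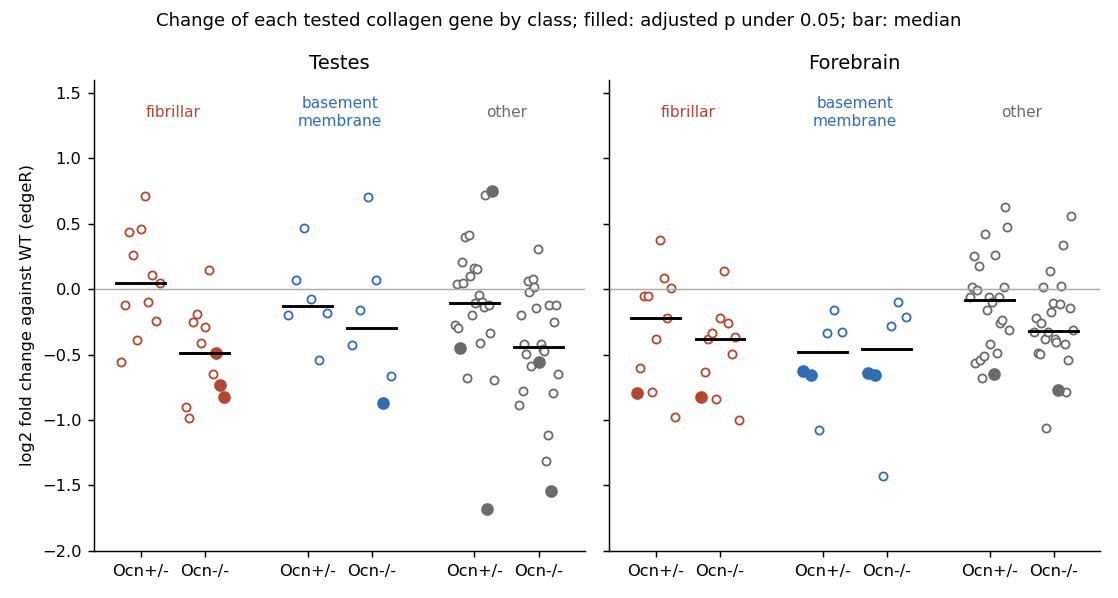
Log2 fold change against WT of every tested collagen gene, by class and genotype, in testes (left) and forebrain (right); filled points have an adjusted p under 0.05 (edgeR), open points do not, and black bars are medians. Most points lie below 0 in each class, except for the fibrillar genes in Ocn+/- testes, where the median is 0.05.

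Vascular markers moved with genotype in testes. Of 10 endothelial markers, 4 were called lower in Ocn+/- (Pecam1, Kdr, Emcn and Vwf) and 7 in Ocn-/-, beside 4.36% and 3.09% of all genes, and their summed level was 682 to 684 CPM in WT, 443 to 515 in Ocn+/- and 401 to 432 in Ocn-/-. Of 11 pericyte and smooth muscle markers, Rgs5 was called lower in Ocn+/- and Pdgfrb, Rgs5, Abcc9 and Notch3 in Ocn-/-, with sums of 1364 to 1672, 1184 to 1388 and 962 to 1201 CPM. Of 8 tested fibroblast markers, Pdgfra was called lower in Ocn+/- and Dpt in Ocn-/-, with sums of 2563 to 2749, 1692 to 2296 and 1635 to 2120.0 CPM. None of the markers in these 3 lists was at 0 counts in testes. Of 8 Sertoli markers, Sox9 was called higher in both, beside 3.89% and 2.54% of all genes, and of 6 markers of fetal Leydig cells Lhcgr lower in both. The Sertoli sum overlapped between genotypes, at 2088 to 2374 CPM in WT, 1996 to 2525 in Ocn+/- and 2172 to 2935 in Ocn-/-. Its highest value was that of Ocn-/- testis 3, which had the lowest collagen sum. The Leydig sum was 1691 to 1772 CPM in WT, 714 to 1249 in Ocn+/- and 742 to 1134 in Ocn-/-. Of 4 tested adipocyte markers, Fabp4 was called lower in both and Lpl in Ocn+/-, with sums of 123 to 150.0, 62.7 to 90.1 and 69.1 to 89.4 CPM. The sums of the endothelial, fibroblast, Leydig, adipocyte and choroid plexus markers were lower in all mutant testes than in the 2 WT libraries, and those of the bone and olfactory bulb markers were higher. The bone sum was 76.7 to 92.1 CPM in WT, 93.9 to 110.1 in Ocn+/- and 98.4 to 122 in Ocn-/-. None of 3 tested bone markers was called in either genotype. Alpl was called higher for the mean of both mutants (0.44 ± 0.135, edgeR, adjusted p = 0.0486), beside 4.51% of all genes. Choroid plexus sums were 75.1 to 76.2 CPM in WT, 53 to 58.5 in Ocn+/- and 54.7 to 59.6 in Ocn-/-, with Aqp1 called lower in both. Olfactory bulb sums were 6.09 to 6.81, 7.82 to 9.56 and 7.59 to 8.97 CPM. Of the 6 macrophage markers Cx3cr1 was called higher in Ocn+/- testes (1.54 ± 0.30, edgeR, adjusted p = 0.00785), beside 3.89% of all genes. The macrophage sum was 68.9 to 69.97 CPM in WT, 75.7 to 104.7 in Ocn+/- and 38.8 to 75.5 in Ocn-/-, the last of which overlapped WT. The part of all these markers in the collagen values was not tested.

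The comparison of Ocn-/- with Ocn+/- pups asks what the pup's own genotype does when the mothers are alike. In testes 31 of 41 collagen genes were lower in Ocn-/-, including all 11 fibrillar genes (median -0.57) and all 6 type VI genes (median -0.51), with a median over all 41 of -0.43 beside -0.013 for all genes. edgeR called 0 of 41, and 0% of all genes, while 17 of 41 had an unadjusted p under 0.05, all lower, beside 1881 of 16361 genes. DESeq2 called 4, Col16a1, Col5a1, Col6a1 and Col6a2, beside 70 of 16361 genes, and edgeR with no filter on low counts called 13, beside 252 of 29196 genes. The lowest adjusted p among the collagens was 0.141 (edgeR), that of Col5a3 at -0.88 ± 0.18 and Col9a2 at -0.87 ± 0.16 among others. Without Ocn-/- testis 3 the median over the collagen genes was -0.28.

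In forebrain 29 of 41 collagen genes were lower in Ocn-/- than in Ocn+/-, with a median of -0.12, which was -0.026 without Ocn-/- 2, -0.041 without Ocn+/- 3, -0.060 without Ocn-/- 1 and -0.21 without Ocn-/- 3, and -0.038 with at least 10 counts in every library. edgeR and DESeq2 called 0, 0.00622% of all genes were called by edgeR, and 4 of 41 collagens had an unadjusted p under 0.05, beside 515 of 16076 genes. For the 4 genes that fell in both genotypes the log2 difference between Ocn-/- and Ocn+/- was -0.032 ± 0.12 (Col11a1), -0.12 ± 0.15 (Col6a3), -0.015 ± 0.15 (Col4a1) and -0.0013 ± 0.15 (Col4a2). Each lay within its standard error of 0.

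The difference between the organs in the response to genotype was tested in the joint fit. Of 42 collagen genes tested there, Col4a3 was called, beside 2.96% of all genes. Col4a3 and Col4a4 encode chains that join Col4a5 in specialised basement membranes, and they lie head to head on chromosome 1, Col4a3 on the plus strand (82564642 to 82699780) and Col4a4 on the minus strand (82426144 to 82564800). In testes Col4a3 read 49.1 and 43.7 CPM in WT, 78.6, 49.97 and 63.8 in Ocn+/- and 58.3, 87.2 and 80.9 in Ocn-/-, with all mutants above WT. In forebrain it read 1.52, 1.96 and 1.601 CPM in WT, 0.812, 0.697 and 0.874 in Ocn+/- and 0.799, 0.268 and 0.828 in Ocn-/-, with all mutants below WT. The log2 change was 0.58 ± 0.18 in testes and -1.25 ± 0.40 in forebrain, neither called (edgeR, adjusted p = 0.0573 and 0.0566), and their difference was 1.82 ± 0.38 (adjusted p = 0.0118). The call was lost without testis WT 2 (0.0572) and without forebrain WT 2 (0.0537). Opposite-strand genes cover 10.1% of the Col4a3 exons.

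The partner Col4a4, at 294 and 287 CPM in WT, 301, 250.4 and 277 in Ocn+/- and 278, 328 and 310.5 in Ocn-/- in testes and 2.36, 4.38 and 3.02 CPM in WT, 2.57, 2.402 and 2.69 in Ocn+/- and 2.96, 2.61 and 2.41 in Ocn-/- in forebrain, was not called in either organ (edgeR, adjusted p = 0.999 and 0.49 for the mean of both mutants). The ratio of Col4a3 to Col4a4 counts separated mutants from WT. In testes it was 0.167 and 0.152 in WT, 0.261, 0.2 and 0.23 in Ocn+/- and 0.21, 0.266 and 0.26 in Ocn-/-. In forebrain it was 0.645, 0.447 and 0.529, 0.316, 0.29 and 0.325 and 0.27, 0.103 and 0.344. No mutant library overlapped WT in either organ. In testes this separation was not particular to the pair. The ratios of Col4a1 to Col4a2, Col5a1 to Col5a2 and Col6a1 to Col6a2 also set all mutants apart from the 2 WT libraries. Those of Col1a1 to Col1a2 and Col4a5 to Col4a6 overlapped WT there. In forebrain none of these other pairs separated all mutants from WT, but the Col4a3 ratios there rest on 4 to 20 Col4a3 counts per library.

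Col4a1 and Col4a2 were not called for a difference between organs in the main test, and Col4a2 lay near the threshold. The difference was 0.60 ± 0.17 for Col4a2 and 0.31 ± 0.17 for Col4a1 (edgeR, adjusted p = 0.0512 and 0.339). Col4a2 was called with library totals alone as the scaling, with DESeq2, with no filter on low counts, with at least 10 counts in every library, and without testis Ocn-/- 2, testis Ocn+/- 2, forebrain Ocn-/- 3 or forebrain Ocn+/- 3. In testes Col4a1 read 1333 and 1445 CPM in WT, 1231, 1062 and 1345 in Ocn+/- and 966, 1041 and 1092 in Ocn-/-, and Col4a2 723 and 802 CPM in WT, 773, 753 and 876 in Ocn+/- and 662, 660.5 and 726 in Ocn-/-. Neither was called there, with adjusted p for Ocn-/- of 0.0573 and 0.456. The ratio of their counts was 1.84 and 1.8 in WT testes, 1.59, 1.41 and 1.54 in Ocn+/- and 1.46, 1.58 and 1.5 in Ocn-/-, so that all mutant testes were below WT.

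Genes that act on collagen chains were read from 5 lists made by role. Of 20 genes of collagen modification and folding, 4 were called lower in Ocn+/- testes, 5 in Ocn-/- testes and 2 in each mutant forebrain, beside 4.36%, 3.09%, 2.68% and 3.05% of all genes called lower, and 0 were called higher. P4ha1 and P4ha2 were called in all 4 comparisons. They encode the catalytic subunits of prolyl 4-hydroxylase, which makes the hydroxyproline that keeps the triple helix stable.

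P4ha1 read 146 and 178 CPM in WT, 64.03, 53.1 and 57.1 in Ocn+/- and 66.98, 77.7 and 66.8 in Ocn-/- in testes. In forebrain it read 27.99, 40.9 and 47.9 CPM in WT, 23.8, 17.5 and 19.3 in Ocn+/- and 24.4, 21.6 and 21.8 in Ocn-/-. All mutant libraries lay below all WT libraries in both organs. The log2 fold change was -1.48 ± 0.13 and -1.20 ± 0.13 in Ocn+/- and Ocn-/- testes (edgeR, adjusted p = 6.91e-06 and 6.16e-05) and -0.92 ± 0.17 and -0.76 ± 0.17 in forebrain (adjusted p = 0.00616 and 0.017). In testes P4ha1 was called under every alternative run, also without WT 2, with adjusted p up to 4.61e-04 in Ocn+/- and 0.00601 in Ocn-/-. In Ocn-/- forebrain it was not called without WT 2, WT 3 or Ocn-/- 2 (adjusted p up to 0.094).

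P4ha2 read 40.04 and 43.5 CPM in WT, 24.4, 24.4 and 24.2 in Ocn+/- and 22.2, 19.8 and 18.7 in Ocn-/- in testes and 9.91, 7.83 and 11.6 CPM in WT, 4.94, 6.51 and 4.704 in Ocn+/- and 5.03, 4.55 and 5.12 in Ocn-/- in forebrain. Again no mutant library reached WT in either organ. The log2 fold changes were -0.78 ± 0.16 and -1.05 ± 0.16 in testes and -0.85 ± 0.21 and -0.98 ± 0.21 in forebrain (edgeR, adjusted p = 0.00862, 0.00131, 0.0282 and 0.0122). In Ocn-/- testes it was not called without WT 2 (adjusted p up to 0.054) and in Ocn+/- testes not without WT 1 or WT 2 (adjusted p up to 0.152). In Ocn-/- forebrain it was not called without WT 3 or Ocn-/- 2 (adjusted p up to 0.0704) and in Ocn+/- forebrain not without WT 1, WT 3, Ocn+/- 1 or Ocn+/- 3 or with library totals alone as the scaling (adjusted p up to 0.131).

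Further genes of this list were called in testes and not in either forebrain genotype, and the difference between organs was not called for them. Plod2, a lysyl hydroxylase, gave -0.83 ± 0.14 in Ocn+/- and -0.57 ± 0.14 in Ocn-/- (edgeR, adjusted p = 0.00254 and 0.0228). Plod1, another lysyl hydroxylase, and Serpinh1, the collagen chaperone of the endoplasmic reticulum, were called in Ocn-/- testes (-0.59 ± 0.15 and -0.52 ± 0.14, adjusted p = 0.0285 and 0.0385). Serpinh1 was also called lower in forebrain for the mean of both mutants (-0.35 ± 0.094, adjusted p = 0.0262), where it read 60.9, 59.8 and 67.1 CPM in WT, 48.02, 45.9 and 55.6 in Ocn+/- and 44.6, 45.01 and 55.2 in Ocn-/- with every mutant below WT, and not without WT 1, WT 2, WT 3, Ocn-/- 2 or Ocn+/- 2 or with library totals alone as the scaling (adjusted p up to 0.145). Colgalt2, which adds galactose to hydroxylysine, was called in Ocn+/- testes (-1.02 ± 0.26, adjusted p = 0.0288). The testis calls of these 4 genes were lost without testis WT 2 (adjusted p up to 0.479), and all but those of Plod2 in Ocn+/- also without at least 1 mutant library.

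Of the genes of procollagen processing and cross-linking, 12 were tested in testes and 13 in forebrain. The calls were 1 higher in Ocn+/- testes, 2 lower in Ocn-/- testes, 1 lower in each mutant forebrain and 1 higher in Ocn-/- forebrain, beside 3.89%, 3.09%, 2.68%, 3.05% and 1.8% of all genes. Lox and Loxl2, lysyl oxidases that cross-link fibrils, were called lower in Ocn-/- testes (-1.06 ± 0.24 and -0.49 ± 0.13, edgeR, adjusted p = 0.0405 and 0.0362), and Pcolce, which helps to cleave procollagen, higher in Ocn+/- testes (0.50 ± 0.14, adjusted p = 0.0444). In forebrain Pxdn, the peroxidase that links type IV collagen, was called lower in both genotypes. It read 108, 98.9 and 109 CPM in WT, 81.6, 63.4 and 76.3 in Ocn+/- and 87.1, 76.1 and 72.9 in Ocn-/-, with all mutants below WT. The log2 fold changes were -0.51 ± 0.10 and -0.42 ± 0.10 (adjusted p = 0.00741 and 0.0209), and the Ocn-/- call was not made without WT 1, WT 3, Ocn-/- 2 or Ocn-/- 3 or with library totals alone as the scaling (adjusted p up to 0.115). The testis calls of Lox, Loxl2 and Pcolce were lost without WT 1 or WT 2, among others. Adamts3, a procollagen peptidase, was called higher in Ocn-/- forebrain (0.50 ± 0.12, adjusted p = 0.0201) and not without WT 2, WT 3 or Ocn-/- 1 (adjusted p up to 0.0835).

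Among collagen receptors, 9 were tested in each organ. Itga1, the integrin chain that binds type IV and type I collagen, was called lower in all 4 comparisons. Of the 9 genes, 2 were called lower in Ocn+/- testes and 1 in each of the others, beside 4.36%, 3.09%, 2.68% and 3.05% of all genes. Itga1 read 64.1 and 80.4 CPM in WT, 33.2, 44.5 and 39.9 in Ocn+/- and 46.7, 49.3 and 28.3 in Ocn-/- in testes and 30.04, 34.4 and 44.5 CPM in WT, 25.02, 22.6 and 27.6 in Ocn+/- and 20.9, 23.2 and 24.4 in Ocn-/- in forebrain. The mutant libraries lay below WT in both organs. The log2 fold changes ran from -0.88 in Ocn+/- testes to -0.52 in Ocn+/- forebrain (edgeR, adjusted p from 0.0121 to 0.042), and the calls were lost without testis WT 2 (adjusted p up to 0.414) or forebrain WT 3 (up to 0.212), and except in Ocn-/- forebrain also without other libraries. Its partner Itgb1 was called in Ocn+/- testes (-0.58 ± 0.13, adjusted p = 0.0172). Among 10 tested genes of collagen breakdown Timp3, an inhibitor of matrix proteases bound to the matrix, was the single gene called, lower in both mutant testes and in Ocn-/- forebrain beside 4.36%, 3.09% and 3.05% of all genes (-0.64 ± 0.14, -0.53 ± 0.14 and -0.45 ± 0.11, adjusted p = 0.0136, 0.0366 and 0.0201). It read 429.9 and 485 CPM in WT, 269.8, 338 and 271 in Ocn+/- and 302, 367 and 279.9 in Ocn-/- in testes and 98.2, 85.9 and 95.2 CPM in WT, 81.2, 79.7 and 71.7 in Ocn+/- and 58.9, 66.4 and 79.9 in Ocn-/- in forebrain. The testis calls of Itgb1 and Timp3 were lost without WT 1 or WT 2, that of Timp3 in Ocn-/- testes also without Ocn-/- 3, and the forebrain call of Timp3 without WT 1 or WT 3 (adjusted p up to 0.424).

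Of 15 other basement membrane genes, 13 were below WT in each mutant forebrain, with medians of -0.23 in Ocn+/- and -0.26 in Ocn-/- beside 0.0059 and 0.0061 for all genes. Lama1 and Agrn were called lower in Ocn+/- and Lama1, Lamc1, Hspg2 and Agrn in Ocn-/- forebrain, 2 and 4 of 15 beside 2.68% and 3.05% of all genes. Lama1, a laminin chain of the pial basement membrane, read 27.4, 31.2 and 33.3 CPM in WT, 21.1, 17.1 and 19.6 in Ocn+/- and 20.4, 19.9 and 22.4 in Ocn-/-, with all mutants below WT (-0.66 ± 0.13 and -0.54 ± 0.13, edgeR, adjusted p = 0.00616 and 0.0186). In testes it was not called, and its response differed between the organs (0.69 ± 0.15, adjusted p = 0.0135), as did those of Hspg2, the perlecan core protein (0.57 ± 0.14, adjusted p = 0.0243), and Lama3 (0.75 ± 0.19, adjusted p = 0.0304). In testes Lama4, the laminin chain of vessels, was called lower in both genotypes (-0.51 ± 0.12 and -0.67 ± 0.12, adjusted p = 0.0194 and 0.00495), Lama2 in Ocn+/- and Nid1 in Ocn-/-, which makes 2 of 15 in each beside 4.36% and 3.09% of all genes. Of these calls, that of Lama1 in Ocn+/- forebrain was made under each alternative, and the other forebrain calls were lost without WT 3 and also with library totals alone as the scaling (adjusted p up to 0.304 for Agrn in Ocn-/-, which was called under 6 of 16 alternatives). The testis calls and the differences between organs were lost without testis WT 2 (adjusted p up to 0.396), that of Nid1 also without Ocn-/- 3.

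**Figure D5:**
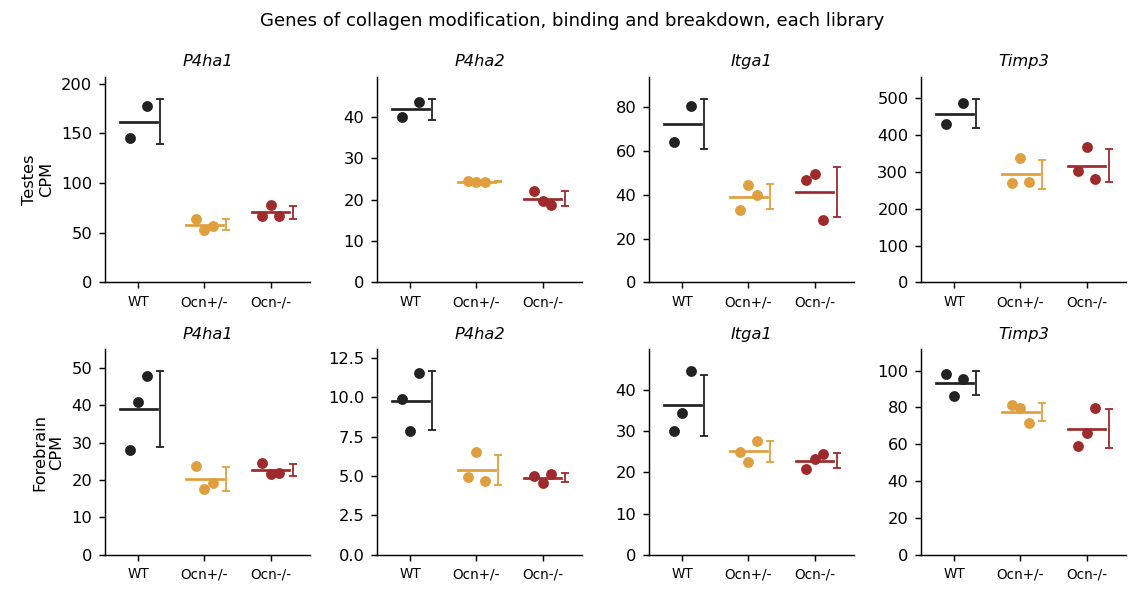
Level in CPM of P4ha1, P4ha2, Itga1 and Timp3 in testes (top row) and forebrain (bottom row) for WT, Ocn+/- and Ocn-/-; points are libraries, horizontal lines means and error bars the SD. The mutant points of P4ha1, P4ha2, Itga1 and Timp3 lie below all WT points in both organs, with the WT means of P4ha1 and P4ha2 in testes well apart from the mutant means.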

How the data were processed

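Total RNA of testes and forebrain from postnatal day 1 males gave 17 libraries. The authors trimmed reads with Trim Galore 0.6.6, aligned them with STAR 2.7.8a and deposited the expected counts of RSEM 1.3.3 per gene on GRCm39, an estimate in which reads shared between genes are divided. The GENCODE release and the strand setting are not given in the sources used here. The expected counts were rounded to whole numbers and tested with edgeR 4.0.16 (R 4.3.3), all genotypes of an organ in one fit, after filterByExpr and TMM scaling. The quasi-likelihood p-values were adjusted by Benjamini-Hochberg over 16361 genes in testes, 16076 in forebrain and 17800 in the joint fit of both organs. The fits were tested on simulated data. DESeq2 1.42.0, other scalings and filters, a replicate block and leaving out each library were alternatives. The replicate spread (biological coefficient of variation) was 0.153 in testes and 0.116 in forebrain, and a count of 0 allows up to 3 counts.

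The collagen genes, classes, pathway and marker lists were chosen with earlier results of these data known. Values of every library are printed for collagen genes called in a comparison of genotypes, the 5 highest per kb of exon in each organ, the largest change of each class and their partner chains. Pathway genes could be named when called. Gene positions and exon lengths come from GENCODE vM39, and start regions from RefSeq on GRCm38.p6, whose coordinates were not mixed with those of the files.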

Additional observations from a re-analysis of the deposited data

Results flagged for a closer look

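Col4a3 differed between the organs in its response to genotype. Its log2 change, as the mean of Ocn+/- and Ocn-/- against WT, was 0.58 in testes and -1.25 in forebrain, neither of which was called (adjusted p = 0.0573 and 0.0566), and the difference of 1.82 ± 0.38 passed edgeR's quasi-likelihood test of the difference itself (adjusted p = 0.0118). That call was lost without testis WT 2 (adjusted p = 0.0572) or forebrain WT 2 (0.0537). All 6 mutant testes were above both WT testes and all 6 mutant forebrains below all WT forebrains. The forebrain level was at most 1.96 CPM, so the forebrain change rests on few reads.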

How the results depend on the processing

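The number of collagen genes called moved with the processing, as follows. With DESeq2 it was 14 in Ocn-/- testes, 4 for Ocn-/- against Ocn+/- testes, 8 for the mean of both mutants in testes and 2 for the difference between organs. With no filter on low counts it was 8 in Ocn+/- testes, 16 in Ocn-/- testes, 13 for Ocn-/- against Ocn+/- testes, 8 for the mean of both mutants in testes, 7 for that mean in forebrain and 3 for the difference between organs. With at least 10 counts in every library it was 10 in Ocn-/- testes and 7 for the mean of both mutants. With only the genotypes compared in the fit it was 5 in Ocn+/- testes. With library totals alone as the scaling it was 2 for the difference between organs. Calls over all genes moved as well: in Ocn-/- testes from 922 to 1323 with DESeq2, 1763 with no filter (29196 genes tested) and 1034 with at least 10 counts, for the mean in testes from 1626 to 1884, 2351 and 1720, in Ocn+/- testes from 1350 to 2149 with no filter and 2084 with only the genotypes compared, for the mean in forebrain from 1395 to 2086 with no filter, and for the difference between organs from 526 to 1019 with DESeq2, 1023 with no filter and 397 with library totals alone. The cause was not tested.

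Replicate numbers only name samples: deviations of same-numbered libraries correlated between -0.0937 and 0.0871 in testes (7 pairs) and between -0.0366 and 0.146 in forebrain (9 pairs). With the replicate number as a block the counts were 7 in Ocn-/- forebrain, 7 for the mean of both mutants in forebrain and 2 for the difference between organs, the added gene being Col4a2, and the block ended the calls of Col8a1 in both mutant testes, of Col5a1 in Ocn-/- testes, of Col9a3 for the mean in testes, of Pcolce and Lama2 in Ocn+/- testes and of Hspg2 and Lama3 for the difference between organs. Leaving out 1 library gave 0 to 4 calls in Ocn+/- testes, 0 to 10 in Ocn-/- testes, 0 to 1 for Ocn-/- against Ocn+/- testes, 0 to 5 for the mean in testes, 1 to 4 in Ocn+/- forebrain, 2 to 10 in Ocn-/- forebrain, 2 to 8 for the mean in forebrain and 0 to 2 for the difference between organs. No called gene changed direction under the alternatives run, whereas the median of all collagen genes in Ocn+/- testes, -0.096, turned to 0.088 without WT 2, 0.0063 without Ocn+/- 1 and 0.013 with the block. With the longest transcript as gene length, the fibrillar share was 59.9% in testes and 39.8% in forebrain, the type IV share 13.4% and 28.8%, and the share of the others 26.7% in testes. With 2 WT testes, 1 library can end a call, and collagens under 2 CPM in forebrain allow only large changes to be seen.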
